A study of Mus musculus with 8 samples.

Results

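Ramp1 and Ramp3 encode receptor activity-modifying proteins, and both were measured here in sorted cells of the newborn mouse cerebral cortex. They were found as the gene probes whose RefSeq transcript, with its version dropped, belongs to either gene, which gave 1 probe for each gene among 33012 gene probes. These are 2 of the 311 genes that could be named on the arrays. Ramp3 was measured by probe 385228 (NM_019511.1) and Ramp1 by probe 432406 (NM_178401.2). The reference lists 3 curated and 2 predicted transcripts for Ramp1 and 1 of each kind for Ramp3, and which Ramp1 transcripts the probe binds is not given in the sources used here. Both genes were chosen on their difference in signal between the 2 sorted fractions, which was known beforehand, so their values below are a description with no test.

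All samples came from postnatal day 0 pups heterozygous for GAD67-EGFP (GAD67-EGFP+/-), in which EGFP expression follows the gene of the GABA-synthesising enzyme GAD67. Cortical cells were sorted by flow cytometry into a GFP+ fraction, meant to hold the GABAergic neurons, and a GFP- fraction, which holds the remaining mixture of cortical cells. There were 4 biological replicates of each fraction, each on its own one-colour array, and the same genotype was shared by both fractions. Whether a replicate was 1 pup or a pool is not given in the sources used here. Of 17 markers listed for GABAergic neurons none was matched to a probe by name, so the identity of the GFP+ fraction rests on its sort.

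RAMPs are small single-pass membrane proteins that pair with G protein-coupled receptors, many of the secretin family, and carry some of them to the cell surface. With the receptor CALCRL, RAMP1 forms a receptor for calcitonin gene-related peptide, and RAMP2 or RAMP3 a receptor for adrenomedullin. With the calcitonin receptor CALCR, RAMPs form receptors for amylin. Which RAMP a cell makes therefore bears on which peptide such a receptor prefers.

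The stretch around the annotated start of each gene is shown because RAMP1 and RAMP3 transcripts lay on opposite sides of the comparison described below. Both sequences run 5′ to 3′ from 250 bases before to 50 bases after the start used in the RefSeq promoter table (GRCm38.p6), which for Ramp3 lies slightly inside the annotated gene, and capitals mark the GC box GGGCGG on either strand.
Ramp3, chr11:6658283-6658582, plus strand: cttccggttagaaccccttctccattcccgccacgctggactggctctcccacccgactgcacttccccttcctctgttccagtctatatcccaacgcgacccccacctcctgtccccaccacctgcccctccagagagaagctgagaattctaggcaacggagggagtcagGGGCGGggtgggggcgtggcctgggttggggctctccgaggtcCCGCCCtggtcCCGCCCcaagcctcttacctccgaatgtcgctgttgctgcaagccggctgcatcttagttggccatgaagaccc
Ramp1, chr1:91179572-91179871, plus strand: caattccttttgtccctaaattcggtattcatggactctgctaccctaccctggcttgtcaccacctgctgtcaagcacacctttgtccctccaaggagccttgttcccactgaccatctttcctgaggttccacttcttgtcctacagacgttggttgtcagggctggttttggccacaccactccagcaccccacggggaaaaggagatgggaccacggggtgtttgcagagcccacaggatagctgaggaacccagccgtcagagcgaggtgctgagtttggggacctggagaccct
The Ramp3 stretch held 3 GC boxes and 15 CpG dinucleotides at a GC content of 63.7%. The Ramp1 stretch held 0 GC boxes and 6 CpG dinucleotides at 55.7% GC. Across 32851 promoter stretches of the same length the median GC content was 52.7%, and 35.7% held a GC box. The cAMP response element half-site TGACG had 1 match in Ramp1 and 0 in Ramp3, against 20.8% of all stretches with a match. The E-box CANNTG had 1 match in each (72.3% of all stretches), while the TATA box TATAAA (13.6%) and the homeodomain core TAATTA (5.29%) had 0. Both strands were searched, and no matches of different motifs overlapped. A match is only a run of letters, and which transcript start is used in these cells was not measured.

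Ramp3 had the higher signal in the GFP+ fraction, by 1.86-fold. On the GFP+ arrays of replicates 1 to 4 its signal intensity, in arbitrary units, was 6251.5, 2950, 4180 and 4292. On the GFP- arrays it was 3723, 1831, 2034 and 2755. The GFP+ array was the brighter one in each of the 4 same-numbered pairs, by 1.68-, 1.61-, 2.05- and 1.56-fold. Without scaling the fractions overlapped, since GFP+ replicate 2 read below GFP- replicate 1. Once the arrays were brought to a common distribution by quantile normalization they did not, as for 9.23% of tested probes in this direction, with log2 signals of 12.23, 11.83, 12.25 and 12.17 on GFP+ arrays and 11.47, 10.89, 11.05 and 11.48 on GFP- arrays. The mean was 12.12 ± 0.20 in GFP+ and 11.23 ± 0.30 in GFP- cells (SD, n = 4 each). The log2 difference, GFP+ minus GFP-, was 0.89 ± 0.20 (SE from limma), with a 95% interval of 0.45 to 1.34.

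Ramp1 moved the other way, and its mean normalized signal was 2.79-fold lower in the GFP+ fraction. This fold is uncertain, since the GFP+ signals did not reach the minimum score for background, as explained below. The Ramp1 signal was 426.6, 341.6, 401.0 and 383.5 on the GFP+ arrays of replicates 1 to 4, and 2796, 996.1, 1224 and 678.2 on the GFP- arrays. Every GFP+ array lay below every GFP- array, here and after normalization, where 11.1% of tested probes showed the same order. The GFP+ signals spanned a narrow range, whereas the GFP- signals varied widely and GFP- replicate 1 was far the brightest. Within pairs the GFP+ signal was 0.153, 0.343, 0.328 and 0.566 times the GFP- signal. Normalized log2 signals were 8.41, 8.82, 8.88 and 8.61 on GFP+ arrays, against 11.05, 10.0045, 10.30 and 9.28 on GFP- arrays. Their means were 8.68 ± 0.21 in GFP+ and 10.16 ± 0.73 in GFP- cells (SD, n = 4 each). The log2 difference was −1.48 ± 0.34 (SE from limma), with a 95% interval of −2.26 to −0.70. Without the 2 arrays of replicate 1 it was −1.09.

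**Figure D1:**
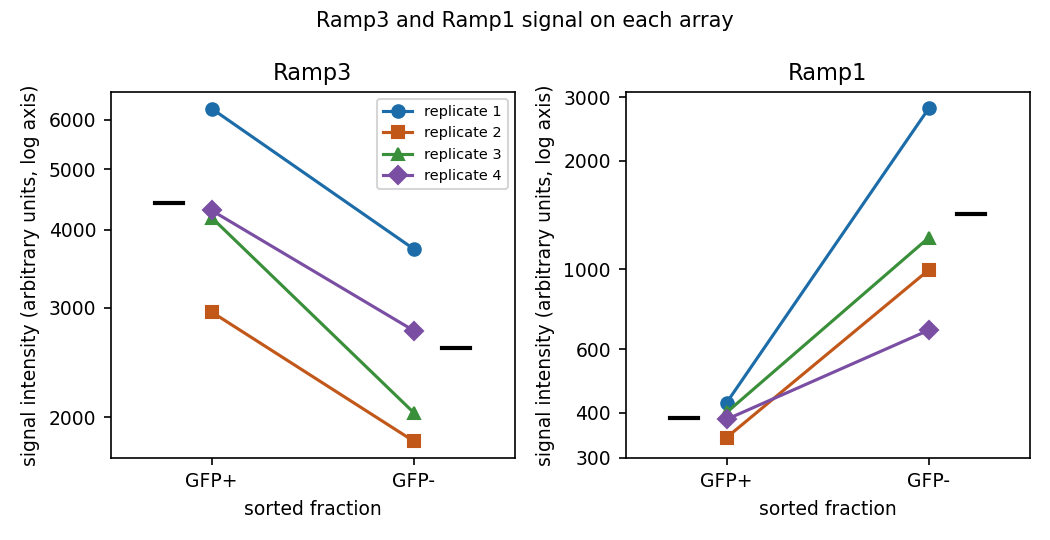
Signal intensity (arbitrary units, log axis) of the Ramp3 and Ramp1 probes in GFP+ and GFP- cells, with a line joining the 2 arrays of each replicate number and a short black bar at each fraction's mean. All 4 Ramp3 lines are higher at GFP+ and all 4 Ramp1 lines are lower at GFP+; the GFP- replicate 1 array stands highest for Ramp1 at 2796.

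By the signal-to-noise score deposited for each spot, Ramp3 was measured above background in both fractions and Ramp1 in GFP- cells alone. A score of 3 was taken as the minimum for a probe above background. For Ramp3 the scores were 30.46, 31.20, 16.75 and 15.18 on GFP+ arrays and 19.30, 11.31, 9.42 and 9.11 on GFP- arrays. For Ramp1 they were 1.67, 1.91, 2.40 and 1.82 on GFP+ arrays, all under the minimum, and 30.42, 3.53, 7.14 and 3.16 on GFP- arrays. GFP- replicates 2 and 4 thus lay just above it. All 16 spots of both probes carried a quality flag of 0.

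Because the Ramp1 probe scored under the minimum on every GFP+ array, its fold is uncertain, and a bound was sought. On each GFP+ array the Ramp1 signal was set against the dimmest signal of any probe above background (105.7 to 165.2), and the brighter was taken. The Ramp1 signal was the brighter one on all 4 arrays, so this floor never applied. The fold given above is thus the measured one, and it is not a bound. Against 98 negative control spots on the same array, the Ramp1 signal exceeded 83, 85, 92 and 71 of them on GFP+ arrays and 96, 96, 96 and 92 on GFP- arrays. The median signal of these spots was 26.3 to 67.7 on GFP+ arrays, below the Ramp1 signals of 341.6 to 426.6 there. Ramp3 exceeded 96 or 97 of the 98 on all 8 arrays. Of all 33012 gene probes, 265 (0.803%) were like Ramp1 above background on all 4 GFP- arrays and on no GFP+ array.

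**Figure D2:**
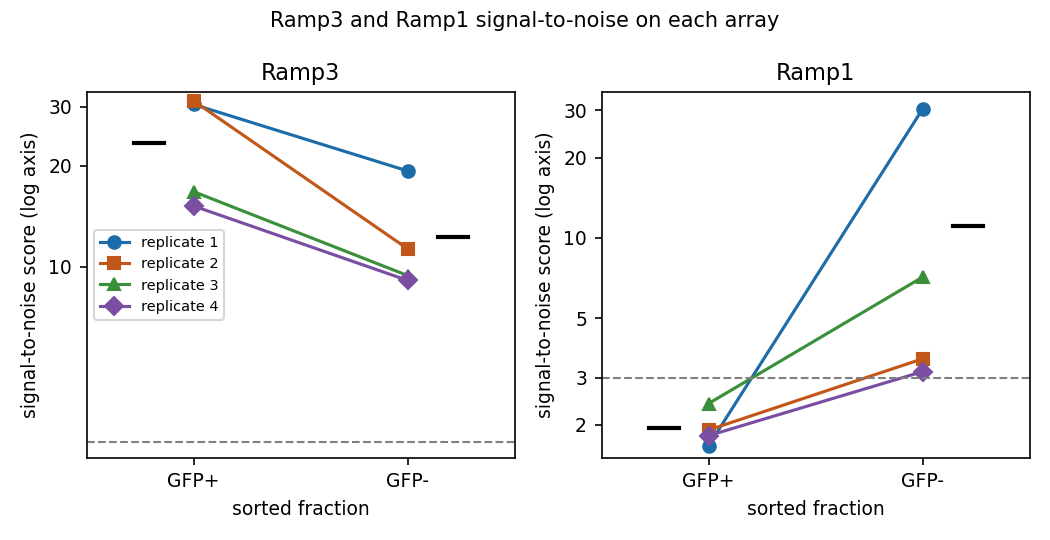
Signal-to-noise score (log axis) of the Ramp3 and Ramp1 spots in GFP+ and GFP- cells, with lines joining arrays of one replicate number, short black bars at the means and a dashed line at the minimum of 3. Ramp3 lies above the dashed line on all arrays, and Ramp1 lies below it on the 4 GFP+ arrays, at 1.67 to 2.40.

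The balance of Ramp3 to Ramp1 shifted toward Ramp3 in GFP+ cells in each pair. Since different probes bind with different strength, the log2 signal of Ramp3 minus that of Ramp1 on one array has no meaning as a level, and only its change between the fractions is read. This quantity was 3.81, 3.01, 3.37 and 3.56 on GFP+ arrays and 0.42, 0.89, 0.75 and 2.20 on GFP- arrays. The fractions did not overlap, and GFP- replicate 4, where Ramp1 was dimmest among the GFP- arrays, came closest to the GFP+ arrays. Neither this nor the shared direction of the pairs is a separate result. Both had to follow, since each gene alone separated the fractions after normalization, in opposite directions. The shift within pairs, GFP+ minus GFP-, was 3.39, 2.12, 2.62 and 1.36, with a mean of 2.37 ± 0.85 (SD, n = 4 pairs), or 5.18-fold. From the signals as deposited, where any scaling of a whole array cancels, it was 2.45 ± 0.83. The differences within pairs that make it up were 0.75, 0.93, 1.19 and 0.69 for Ramp3 and −2.64, −1.19, −1.42 and −0.67 for Ramp1. The Ramp1 difference was the larger in size in replicates 1 to 3, while both were about alike in replicate 4. Because Ramp1 was not above background in GFP+ cells, this shift too is uncertain as far as Ramp1 enters it.

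**Figure D3:**
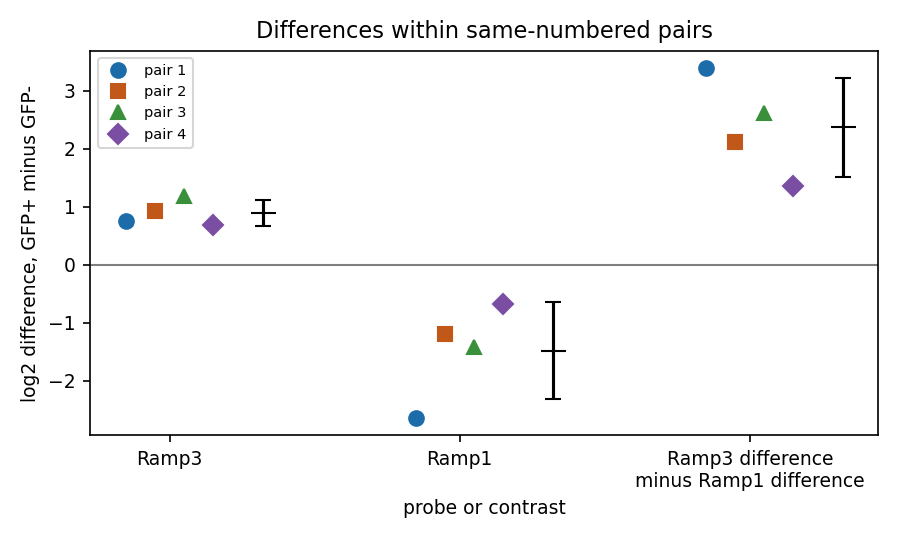
Log2 differences, GFP+ minus GFP-, within the 4 same-numbered pairs for Ramp3, for Ramp1 and for the Ramp3 difference minus the Ramp1 difference, with black bars for mean ± SD. Ramp3 values lie between 0.69 and 1.19, Ramp1 values between −2.64 and −0.67, and the combined shift between 1.36 and 3.39.

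The arrays fell into 2 sets by the mean log2 signal of their hybridization control spots, in both fractions alike. It was 15.95 to 16.27 for replicates 1 and 2 and 17.14 to 17.35 for replicates 3 and 4. The split rests on these spots alone and not on a named batch. The Ramp3 difference was 0.84 in the first set and 0.94 in the second. The Ramp1 difference was −1.91 in the first set and −1.05 in the second. Both genes kept their direction in each set, and neither passed limma's threshold in either set of 4 arrays.

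Among all 16875 tested probes, those that reached the minimum score of 3 on 4 or more of the 8 arrays, a higher difference than that of Ramp3 was found for 6.74%. No rank is given for Ramp1, whose GFP+ signals did not reach the minimum score. The median over all tested probes was 0.088, and the 5th and 95th percentiles were −1.80 and 1.06. Ramp1 reached the tested set through its 4 GFP- arrays alone, so it had to differ to some degree. Both of the 2 genes passed limma's adjusted p of 0.05 (Benjamini-Hochberg over all tested probes), as did 14.5% of tested probes, 5.37% higher and 9.1% lower in GFP+ cells. With the replicate number as a block both passed as well, beside 24% of tested probes. Since the genes were chosen with this comparison known, nothing is read from these calls. Ramp3 was not called under scaling to the control spots of the reverse transcription kit (difference 0.75), where 23.6% of all calls were higher in GFP+ cells against 37.1% in the quantile-normalized fit, or when either replicate 1 or replicate 3 was left out (0.94 and 0.79). Ramp1 was not called without replicate 1, 2 or 3 (−1.09, −1.58 and −1.499), or without the single array GFP+ 1, GFP+ 4 or GFP- 3 (−1.39, −1.46 and −1.43). Non-overlap of the fractions in one direction or the other was found for 20.3% of tested probes.

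**Figure D4:**
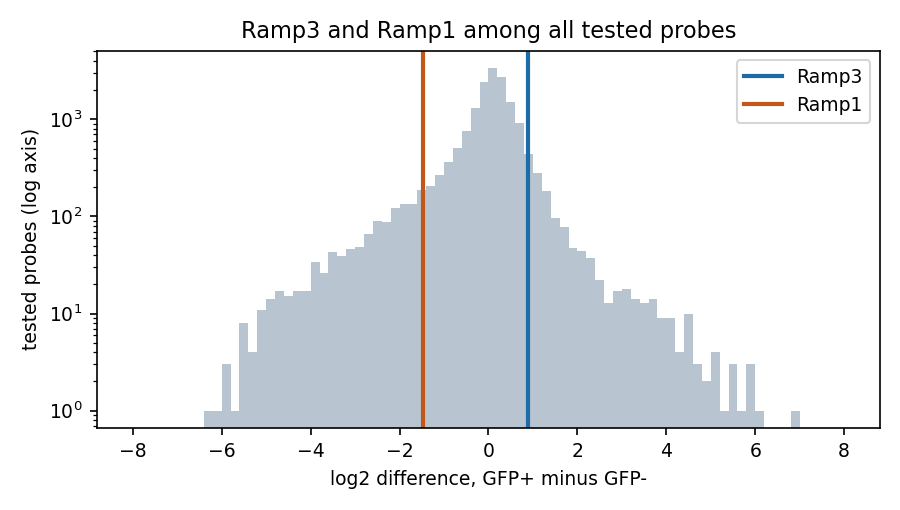
Number of tested probes (log axis) by log2 difference, GFP+ minus GFP-, with vertical lines at Ramp3 (0.89) and Ramp1 (−1.48). The Ramp3 line lies on the upper flank, with 6.74% of tested probes beyond it. The Ramp1 line marks a measured difference that is uncertain, since the GFP+ signals were under the minimum score.

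The receptors and peptides that RAMPs work with could not be described by name. Of 9 listed partners and ligands, among them Ramp2, the receptor genes Calcrl and Calcr and the peptide genes Calca, Adm and Iapp, 0 matched a probe through a RefSeq transcript, synonym or symbol. Of 19 further receptors, of the secretin family or reported to bind RAMPs, 0 matched. Most probes on these arrays carry other identifiers that the reference does not pair with genes, so these genes were not analysed here.

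Broader lists around receptor signalling had 10 tested members, of which 3 were higher in GFP+ cells by limma's adjusted p and 0 were lower, against 5.37% higher and 9.1% lower over all tested probes. Of 34 listed receptor trafficking genes the one matched was Gprasp1, which encodes a protein that sorts internalised G protein-coupled receptors. It differed about as much as Ramp3, by 0.89 ± 0.16 (SE, with limma adjusted p = 0.00533), in 4 of 4 pairs. The call was lost under kit control scaling (0.84) and within replicates 1 and 2 (0.90) or 3 and 4 (0.87) alone. The Gprasp1 log2 signals were 17.99, 18.24, 17.88 and 18.24 on GFP+ arrays and 17.06, 17.37, 17.20 and 17.17 on GFP- arrays. They did not overlap, as for 9.23% of tested probes in this direction. Of 60 listed genes for G proteins, cyclic AMP and RGS proteins the one matched was Gnas, whose product is the stimulatory G protein alpha subunit through which RAMP-bound receptors raise cyclic AMP. Gnas had a difference of 0.18 ± 0.20 (limma adjusted p = 0.655). Of 28 genes for neuropeptides and granule proteins the one matched was Scg2, the granule protein secretogranin II, at 1.58 ± 0.31 (limma adjusted p = 0.00844). It was not called without replicate 4 (1.38) or within replicates 1 and 2 alone (0.99). Scg2 was above background on 4 GFP+ and 2 GFP- arrays.

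The last list held all 56 matched G protein-coupled receptors, most of them olfactory and vomeronasal receptors, of which 7 were tested. The median difference of these 7 was 0.19, against 0.088 over all tested probes. Olfr982, an olfactory receptor gene, passed at 0.91 ± 0.22 (limma adjusted p = 0.0255). That call was lost without any one replicate pair (0.73 to 1.001) and without any one of the arrays GFP+ 1, 3 and 4 and GFP- 2 and 4 (0.78 to 0.94). It was also lost with median scaling (0.92), kit control scaling (0.73), the deposited ratio as it stands (0.92), no filter (0.91) and a robust trend in limma's spread (0.91), and within replicates 1 and 2 (0.75) or 3 and 4 (1.08) alone. The orphan receptor gene Gpr27 had a difference of 0.88 ± 0.38 and was higher in 4 of 4 pairs, but did not pass (limma adjusted p = 0.180). It was above background on 4 GFP+ and 2 GFP- arrays. Gpr119 (−0.12 ± 0.17), Gpr173 (0.16 ± 0.24), Vmn1r236 (0.19 ± 0.33), Olfr338 (0.58 ± 0.55) and Olfr1189 (−0.21 ± 0.55) did not pass either, with limma adjusted p from 0.576 to 0.866. These lists were chosen with results of these arrays known.

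**Figure D5:**
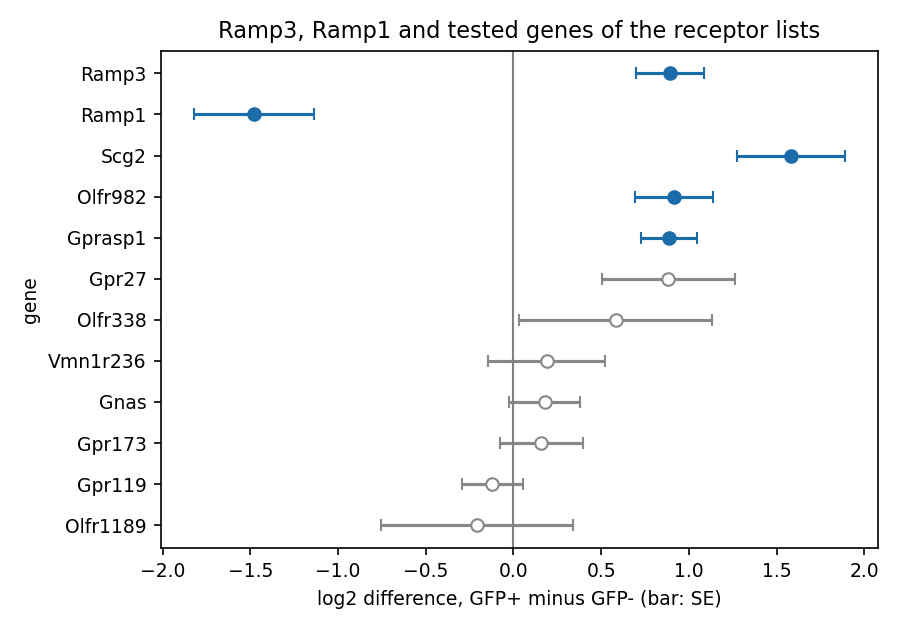
Log2 difference, GFP+ minus GFP-, with its SE from limma for Ramp3, Ramp1 and the 10 tested genes of the receptor lists. Filled points passed limma's adjusted p of 0.05 and open points did not; Ramp1 is the one filled point below 0.

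Genes whose profile over the 8 arrays was most like each member were sought among the 159 other genes with a symbol and a tested probe. For Ramp3 the highest Pearson correlations of log2 signal were those of Tnfrsf13b (0.951), a receptor gene of the tumour necrosis factor family, Rtl8c (0.927), the connexin gene Gjd3 (0.896), Ntn1 (0.889), which encodes the guidance cue netrin-1, and Sox3 (0.869), a transcription factor gene of neural progenitors. Tnfrsf13b was above background on 1 of 4 GFP- arrays. The log2 differences, GFP+ minus GFP-, of these 5 were 2.21, 0.81, 0.44, 1.13 and 0.59 in that order. Ramp3 was itself chosen on this difference, so genes picked for their likeness to it tend to share its direction, and no test is given for them. For Ramp1 the closest were the galectin-1 gene Lgals1 (0.933), Trim59 (0.909), the anti-apoptotic BCL2 relative Bcl2a1b (0.904), the ectodysplasin receptor gene Edar (0.890) and the histone gene H2bc18 (0.884). Picked in the same way, they too are given with no test. Lgals1 and Bcl2a1b were, like Ramp1, above background on 4 GFP- arrays and 0 GFP+ arrays. They thus reached the tested set through GFP- cells and had to differ to some degree. Their mean normalized signals were 5.85- and 6.63-fold lower in GFP+ cells. These folds are uncertain in the same way as that of Ramp1. The log2 differences of Trim59, Edar and H2bc18 were −0.52, −0.97 and −1.40. Both Bcl2a1b and H2bc18 belong to families of near-identical copies, and their probes may bind more than one of them.

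These correlations follow the fraction in large part, and another set of genes led once each fraction's mean was subtracted. Ramp3 was then most like Cd99 (0.931), Mfap4 (0.875), Ctdnep1 (0.805), Tnfrsf13b (0.786) and Rnf112 (0.740). Mfap4, the gene of an extracellular microfibril protein, differed between fractions in the direction opposite to Ramp3, at −2.34 (limma adjusted p = 5.67e-05). Ramp1 was most like Nupr1l (0.793), Bcl2a1b (0.792), Wdfy1 (0.771), Fgf11 (0.765) and Edar (0.757). Opposite to Ramp1, Fgf11 was higher in GFP+ cells by 1.53 on the log2 scale (adjusted p = 0.0152 by limma), and Wdfy1 had a difference of 1.20 that did not pass (limma adjusted p = 0.154). The Fgf11 call was lost without replicate 3 (1.60) and within replicates 1 and 2 (1.05) or 3 and 4 (2.02) alone. Tnfrsf13b for Ramp3, and Bcl2a1b and Edar for Ramp1, were among the 5 by both measures. The correlation of Ramp1 with Ramp3 was −0.767 over the 8 arrays and −0.032 after the fraction means were subtracted. All are descriptions over 8 arrays that share pairs and the 2 sets by control spots.

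Markers of cells other than GABAergic neurons were lower in the GFP+ fraction together with Ramp1. In bulk samples, fewer cells of a type and less RNA per cell cannot be told apart. Of 16 vascular and mural markers 1 was matched, Mfap4, with signals of 1298 to 2435 on GFP+ arrays and 6640 to 14828 on GFP- arrays. Of 13 blood and microglia markers 1 was matched, the alpha-globin gene Hba-a1, at 14743 to 54179 on GFP+ arrays and 516520 to 1028390 on GFP- arrays. Of 12 glial markers 1 was matched, the brain metallothionein gene Mt3, at 3216 to 8952 on GFP+ arrays and 28624 to 107452 on GFP- arrays. Of 15 excitatory neuron markers 3 were matched, Lhx2, Pou3f3 and Zbtb18, with summed signals of 75125 to 119300 on GFP+ arrays and 988249 to 1340630 on GFP- arrays. Most of each sum was Zbtb18, at 68769 to 109700 on GFP+ and 917448 to 1211180 on GFP- arrays. Lhx2 read 1079 to 5780 on GFP+ and 58015 to 103684 on GFP- arrays, and Pou3f3 4588 to 7955 and 11298 to 25761. All 6 of these genes passed limma's test as lower in GFP+ cells, as did 9.1% of all tested probes. The Pou3f3 call was lost without replicate 1 or 4 (−1.502 and −1.49) and within replicates 1 and 2 (−1.66) or 3 and 4 (−1.51) alone. The Lhx2 call was lost within replicates 3 and 4 alone (−4.56). None of the 6 was at 0 in either fraction, and their part in the Ramp1 difference was not tested. Of 12 progenitor markers 0 were matched, and the one pan-neuronal marker of 6 that was, Snap25, was not above background on any array.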

How the data were processed

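Members and gene lists were chosen with earlier results of these data known. RNA from sorted cells was reverse-transcribed, transcribed in vitro with digoxigenin-labelled nucleotides and measured on 8 one-colour arrays, per the labels' protocols. The amplification can change relative signals. The authors deposited a signal intensity, a signal-to-noise score and a quality flag per spot, per the file headers; the sources used here do not give the array type, scanner or software. Median gene signals were 661.6 to 1079 and were not scaled between arrays. The deposited ratio in the series matrix equals each signal over its array's median of gene probes with a low flag, which was tested on the files and settles its scale, centring and direction.

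Signals were set to at least 1, put on the log2 scale and quantile normalized; the deposited values themselves are not log2 values. Of 33012 gene probes, 317 were matched to 311 symbols through RefSeq (GRCm38.p6), 311 of them by transcript. Probes scoring 3 or more on 4 or more of the 8 arrays (16875) were fitted with limma 3.58.1 in R 4.3.3 (lmFit, eBayes, no block), with Benjamini-Hochberg adjustment and a threshold of 0.05. The procedure was tested on simulated data. Subsets of arrays kept the normalization and the tested probes of all 8. The number of arrays limits the precision. Alternatives were other scalings, floors, filters, blocks and left-out arrays.

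Deviations of same-numbered arrays from their fraction means correlated at 0.517, 0.455, 0.347 and 0.441 for replicates 1 to 4, each over 0.1. On this basis the labels' replicate numbers were treated as pairs in the differences within pairs and in the fit with a block. The SEs, intervals and main calls came from the fit without the block and do not use the pairing. Named genes were the 2 members, every tested member of the lists and markers, and for each member the 5 genes most correlated by each of 2 measures.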

Additional observations from a re-analysis of the deposited data

Results flagged for a closer look

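Of 70 sets of 4 normalized log2 signals for the named genes and the Ramp3 to Ramp1 balance, 5 had 1 array far from the other 3, and chance gives about 1 in 20. No set of Ramp3, Ramp1 or their balance was among them. Edar on GFP+ replicate 1 read 9.96, against 10.13 to 10.15 on the other GFP+ arrays. Gpr119 on GFP+ replicate 4 read 11.76, against 11.48 to 11.52. Tnfrsf13b on GFP+ replicate 4 read 10.05, against 10.51 to 10.60. Pou3f3 on GFP+ replicate 2 read 13.19, against 12.34 to 12.44. Hba-a1 on GFP- replicate 2 read 19.05, against 19.39 to 19.45 on the other GFP- arrays.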

How the results depend on the processing

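Ramp3 kept its direction under all 26 alternatives (0.75 to 0.99), Ramp1 under the 24 that tested it (−1.91 to −1.05), and the Ramp3 to Ramp1 shift under the same 24 (1.99 to 2.76, within 1 SD of 2.37). Many of these could not test the direction. Filters, blocks and a robust trend cannot move a difference, and the other floor and the quantile-normalized ratio did not. All of these left Ramp3 at 0.89 and, where tested, Ramp1 at −1.48. Any scaling of a whole array cancels in the shift. Ramp1 was not among the probes tested with a score of at least 3 on all 8 arrays or at least 5 on 4. Ramp3 was not called with kit control scaling (0.75), with no filter (0.89, the same difference tested beside more probes), or within replicates 1 and 2 (0.84) or 3 and 4 (0.94), and Ramp1 not within replicates 1 and 2 (−1.91) or 3 and 4 (−1.05), where only 4 arrays were fitted. Leaving out arrays gave 0.78 to 0.99 for Ramp3 and −1.77 to −1.09 for Ramp1. The cause of the other lost calls was not tested.

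The probes called numbered 2441, and 4043 with the replicate number as a block (4156 after median scaling), 1088 within replicates 1 and 2, 1173 within replicates 3 and 4, and 1529 to 2409 with arrays left out, lowest without replicate 3. The block ended no call among the named genes and added those of Cd99, Trim59 and Wdfy1 (adjusted p = 0.0404, 0.0184 and 0.0270); with median scaling as well, of these 3 only Wdfy1 was called (adjusted p = 0.0207). Of the receptor lists' 10 tested genes 3 were called, but 1 with kit control scaling, 1 within replicates 3 and 4, and 1 to 3 with arrays left out (1 without replicate 4). With the filter on all 8 arrays 1 was called, Gprasp1, and the other called genes, Scg2 and Olfr982, were not tested. Within replicates 1 and 2 limma called 0, with 2 at an unadjusted p under 0.05. Differences that were not called changed sign within replicates 3 and 4 for Ctdnep1 (−0.0052), Gnas (−0.018) and Gpr119 (0.023), and within replicates 1 and 2 for Nupr1l (−0.44) and Olfr1189 (0.99). With arrays left out, Ctdnep1 ranged over −0.064 to 0.22, Gpr173 over −0.027 to 0.31, Nupr1l over −0.19 to 0.71, Olfr1189 over −0.99 to 0.32 and Vmn1r236 over −0.022 to 0.45.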
